A study of Rattus norvegicus with 12 samples.

Results

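The messenger RNAs of the mitochondrial genome and those of the nuclear genes for mitochondrial ribosomal proteins were followed across 4 groups of heart muscle cells. Members were chosen by symbol in the deposited table of raw counts: Mt-nd, Mt-co, Mt-atp or Mt-cyb genes for the first set, and Mrpl or Mrps followed by a digit for the second, ignoring case. Of 32883 genes in the table, 92 matched, and 88 of these had at least 10 counts in at least 3 libraries. The 88 members are 13 mitochondrial mRNAs and 75 mitoribosomal mRNAs, 46 of the large subunit (Mrpl) and 29 of the small subunit (Mrps). All 88 were among the 14063 genes tested.

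The cells were primary ventricular cardiomyocytes from newborn rats, collected 2 days after infection with an adenovirus, and all 4 groups carried such a virus. In the LacZ group it delivered LacZ, a gene of bacteria that serves as control, and in the others human KAT6A, a lysine acetyltransferase of chromatin. KAT6A was given as wild type (WT), as K815R, whose lysine is replaced by arginine and resists acetylation, or as K815Q, whose glutamine mimics acetylated lysine. The series' title places the work in how KAT6A and its acetylation bear on growth and mitochondrial metabolism. Each group had 3 libraries of poly(A) RNA, and the labels do not say whether these came from separate cultures or litters, so p-values measure the spread between these libraries, which may be technical. The strain, the promoter of the viral cargo and the pooling of animals are not given in the sources used here, and all cells kept their own Kat6a gene.

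Mitochondrial DNA is a small circle transcribed by its own RNA polymerase from both strands into long transcripts, which are cut into mRNAs, tRNAs and rRNAs. Its mRNAs encode core subunits of respiratory complexes I, III and IV and of ATP synthase, and heart muscle, which lives on oxidative metabolism, holds much of this RNA. They are translated by the mitochondrial ribosome, whose protein subunits are all encoded in the nucleus, made in the cytosol and imported, and whose symbols carry the number of a bacterial ribosomal protein where there is a counterpart.

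Rat Kat6a served as a check of the labels, and stood at 48.1 ± 4.75 CPM (counts relative to the TMM-adjusted library size) in LacZ, 93.0 ± 12.3 in WT and 108 ± 11.7 in K815R (SD, n = 3 each). Its level in the third virus group, the libraries labelled K815Q, was 46.3 ± 3.35 CPM. Kat6a was thus not raised there, and directions are given for these libraries as labelled K815Q. Groups and forms named KAT6A below follow the labels only, with these libraries included. Prkaa2, which encodes a catalytic subunit of the AMPK that the title names, grouped the libraries differently: 60.9 ± 10.2 CPM in LacZ, 519 ± 102 in WT, 87.2 ± 8.70 in K815R, then 1168 ± 55.4 in labelled K815Q (SD, n = 3 each). Against LacZ its log2 fold changes were 3.09 in WT (adjusted p 2.51e-05), 0.52 in K815R (adjusted p 0.189) and 4.26 in labelled K815Q (adjusted p 4.06e-06), in edgeR's quasi-likelihood F test after Benjamini-Hochberg adjustment. The WT and labelled K815Q libraries thus differed from LacZ in this gene far more than those of K815R, and its part in the results was not tested. The cells matched their label: the summed level of 11 cardiomyocyte markers lay between 45497 and 50730 CPM in every library. Gene counts ran from 19102048 to 25451686 per library.

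Mitochondrial mRNAs took between 10.1% and 12.82% of all gene counts, and their share was somewhat higher in K815R and labelled K815Q than in LacZ. The share was 11.02%, 10.1% and 11.0% in the 3 LacZ libraries, 12.7%, 10.48% and 10.86% in WT, 12.82%, 11.95% and 11.32% in K815R, then 12.72%, 12.43% and 11.27% in labelled K815Q. The K815R and labelled K815Q libraries therefore all lay above the highest LacZ library, by little in replicate 3 of each, while 2 of the 3 WT libraries lay inside the LacZ range. Group means were 10.71 ± 0.523% in LacZ, 11.35 ± 1.19% in WT, 12.03 ± 0.75% in K815R, then 12.14 ± 0.767% in labelled K815Q (SD, n = 3 each). The mitoribosomal mRNAs took 0.4003%, 0.4087%, 0.3984% and 0.4105% of gene counts in the same order of groups, and all 12 libraries lay between 0.3777% and 0.4257% with overlapping groups. The count of mitochondrial over mitoribosomal mRNAs was 26.8 ± 2.01 in LacZ, 27.8 ± 3.4 in WT, 30.2 ± 2.57 in K815R, then 29.6 ± 2.8 in labelled K815Q (SD, n = 3), and the libraries of each of these groups overlapped those of LacZ.

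**Figure D1:**
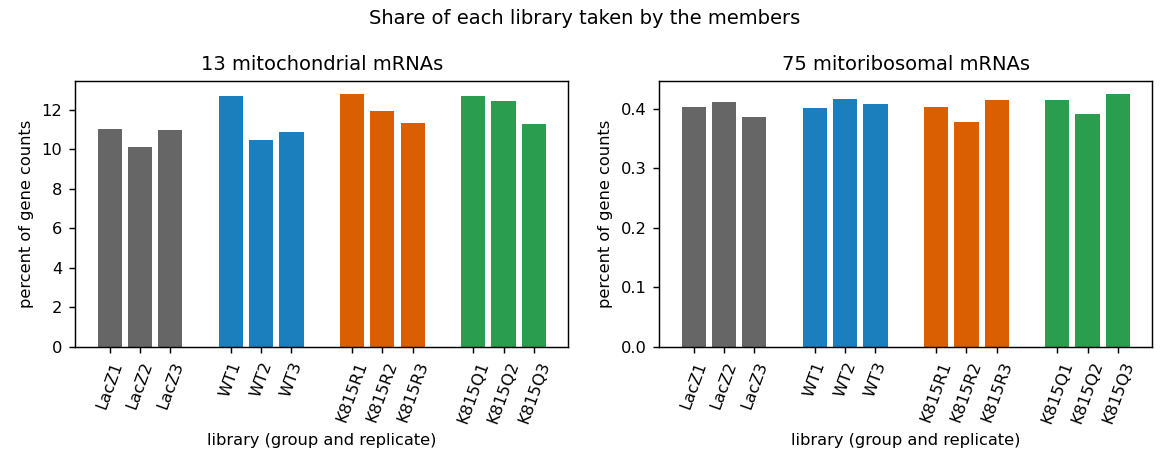
Percent of each library's gene counts taken by the 13 mitochondrial mRNAs (left) and the 75 mitoribosomal mRNAs (right), 1 bar per library, coloured by group, with axes from 0. The mitochondrial share runs from 10.1% in LacZ replicate 2 to 12.82% in K815R replicate 1, and the mitoribosomal share from 0.3777% to 0.4257%.

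Cytochrome mRNAs led the mitochondrial counts. Mt-co1, the catalytic core of cytochrome c oxidase, ranked 1 of all 14063 genes by mean CPM, and Mt-cyb, the cytochrome b of complex III, ranked 2. Mt-co1 alone took between 30.87% and 36.36% of the mitochondrial counts. Its share was 33.86%, 36.36% and 33.84% in LacZ, 32.77%, 34.02% and 32.96% in WT, 31.58%, 32.51% and 32.1% in K815R, then 30.87%, 31.91% and 32% in labelled K815Q. In K815R and labelled K815Q every library was thus below every LacZ library, as the levels of other mitochondrial mRNAs stood further above LacZ than that of Mt-co1. Levels in CPM are not divided by transcript length, so these shares compare counts and not molecules. Mt-atp6 with Mt-atp8, and Mt-nd4 with Mt-nd4l, overlap on the mitochondrial genome, and Mt-nd6 is the one mRNA of the other strand. The strand setting of the counting is not given in the sources used here, so the split of reads between these neighbours is uncertain.

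Against LacZ, all 13 mitochondrial mRNAs had a positive fold change in WT, in K815R and in labelled K815Q, but few passed the test. Genes were called at an adjusted p under 0.05 in edgeR's quasi-likelihood F test after Benjamini-Hochberg adjustment over 14063 genes. In WT 0 of 13 were called, where 5.34% of all genes were called and 1.95% were called higher, and 3 of 13 had an unadjusted p under 0.05, where 19.1% of all genes did. In K815R 1 of 13 was called higher, where 2.47% of all genes were called and 0.74% higher, and 8 of 13 had an unadjusted p under 0.05, against 13.8% of all genes. In labelled K815Q 3 of 13 were called higher, where 7.85% of all genes were called and 2.87% higher, and again 8 had an unadjusted p under 0.05, against 24.2%. The median log2 fold changes of the 13 were 0.15, 0.27 and 0.31, with medians over all genes between 0.00 and 0.01, and positive fold changes in 52.4%, 51.2% and 51.7% of all genes. Without Mt-nd4 the medians were 0.15, 0.26 and 0.29. The 3 comparisons share the LacZ libraries, so their common direction is not independent evidence. Nor are the 13 mRNAs independent of each other, as they are cut from shared long transcripts. Counts out of 13, here and below, are therefore not 13 separate results. A larger share of cells rich in mitochondria and more mitochondrial RNA per cell cannot be told apart in such bulk libraries.

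The called mRNAs encode a subunit of complex IV, a subunit of complex I and a subunit of ATP synthase. Mt-co2, the cytochrome c oxidase subunit that receives electrons from cytochrome c, had 8825, 7685 and 8539 CPM in LacZ, 10559, 8848 and 9204 in WT, 11474, 9737 and 9804 in K815R, then 11124, 10531 and 9833 in labelled K815Q. No library of the other 3 groups overlapped the LacZ libraries, though WT replicate 2 exceeded LacZ replicate 1 by little. Mt-co2 rose in K815R by 0.31 (log2, SE 0.0775, adjusted p 0.0340) and in labelled K815Q by 0.33 (SE 0.0775, adjusted p 0.0123), and stood 0.19 above LacZ in WT (SE 0.0774, adjusted p 0.169), in edgeR's quasi-likelihood F test after Benjamini-Hochberg adjustment. It was the only mitochondrial mRNA called in the test of any difference among the 4 groups (adjusted p 0.0268), where 8.13% of all genes were called, and 5 of the 13 had an unadjusted p under 0.05 there, against 24.6%.

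Mt-nd1, a complex I subunit at the site of quinone binding, had 5724, 4520.3 and 5386 CPM in LacZ and 7215, 6657 and 6356 in labelled K815Q, with 6654, 5241 and 5446 in WT and 6799, 6146 and 6093 in K815R. LacZ replicate 2 was the lowest library, and the labelled K815Q and K815R libraries lay above all of LacZ. Mt-nd1 rose by 0.37 (SE 0.0959, adjusted p 0.0308) in labelled K815Q, against 0.28 (SE 0.0958, adjusted p 0.167) in K815R and 0.15 (SE 0.0958, adjusted p 0.439) in WT, in edgeR's quasi-likelihood F test after Benjamini-Hochberg adjustment. Mt-atp6, the ATP synthase subunit that forms part of the proton channel, had 11066, 10059 and 11021 CPM in LacZ, 13264, 10887 and 11219 in WT, 14928, 12581 and 12282 in K815R, then 14432, 13599 and 12086 in labelled K815Q. It rose by 0.32 in labelled K815Q (SE 0.0869, adjusted p 0.0323) and stood 0.31 above LacZ in K815R (SE 0.0869, adjusted p 0.0728), by the same test. With Mt-atp6 and the overlapping Mt-atp8 counted as 1 feature, the labelled K815Q difference was 0.30 (adjusted p 0.0873) and no longer called.

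Each of these calls was lost when 1 of several libraries was left out. The call of Mt-co2 in K815R was lost without K815R replicate 1 (0.23), K815R replicate 3 (0.35), LacZ replicate 2 (0.25) or LacZ replicate 3 (0.325), and its call in labelled K815Q without K815Q replicate 1 (0.29) or LacZ replicate 2 (0.27). That of Mt-nd1 was lost without K815Q replicate 1 (0.32), K815Q replicate 2 (0.38), K815R replicate 2 (0.37), LacZ replicate 2 (0.28) or LacZ replicate 3 (0.40). With all libraries but no filter on counts, the Mt-nd1 call was lost as well (0.36). That of Mt-atp6 was lost without K815Q replicate 1 (0.26), K815Q replicate 2 (0.31), LacZ replicate 2 (0.28) or LacZ replicate 3 (0.34).

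The remaining mitochondrial mRNAs did not pass the test in any comparison. Mt-cyb came nearest, at 15425, 13212 and 14415 CPM in LacZ, 18359, 17804 and 15834 in K815R and 18174, 17437 and 15769 in labelled K815Q. Its fold changes were 0.27 (SE 0.0794, adjusted p 0.0757) in K815R and 0.26 (SE 0.0794, adjusted p 0.0518) in labelled K815Q in edgeR's quasi-likelihood F test after Benjamini-Hochberg adjustment, and 0.12 in WT. Mt-nd6, the complex I subunit read from the opposite strand, had fold changes of 0.25, 0.42 and 0.62 in WT, K815R and labelled K815Q, the widest of the 13 after Mt-nd4 in WT and K815R and the widest in labelled K815Q, with SE near 0.24 (0.237, 0.237 and 0.238). Its libraries were 2190.2, 1728 and 2163 CPM in LacZ, 2898, 2283 and 2041 in WT, 3634, 2215 and 2268 in K815R, then 3388, 3492 and 2481 in labelled K815Q, so that 1 WT, 1 K815R and 2 labelled K815Q libraries were the highest. The complex I mRNAs Mt-nd2, Mt-nd3 and Mt-nd5 stood 0.24 to 0.34 above LacZ in K815R and labelled K815Q. Mt-co1 and Mt-co3, the other cytochrome c oxidase mRNAs, stood closest to LacZ in WT (0.04 and 0.02), and Mt-co1 also in K815R (0.10) and labelled K815Q (0.08). Mt-co3 followed in labelled K815Q at 0.14, level with Mt-nd4l (0.14), whose value in K815R (0.15) was below that of Mt-co3 (0.18). Mt-atp8, the short ATP synthase subunit, stood at 0.15, 0.25 and 0.21 with an SE of 0.24 in each comparison. Across the set, the libraries of 1 WT, 8 K815R and 8 labelled K815Q mRNAs lay wholly above LacZ, against 12.3%, 9.11% and 13.9% of all genes.

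**Figure D2:**
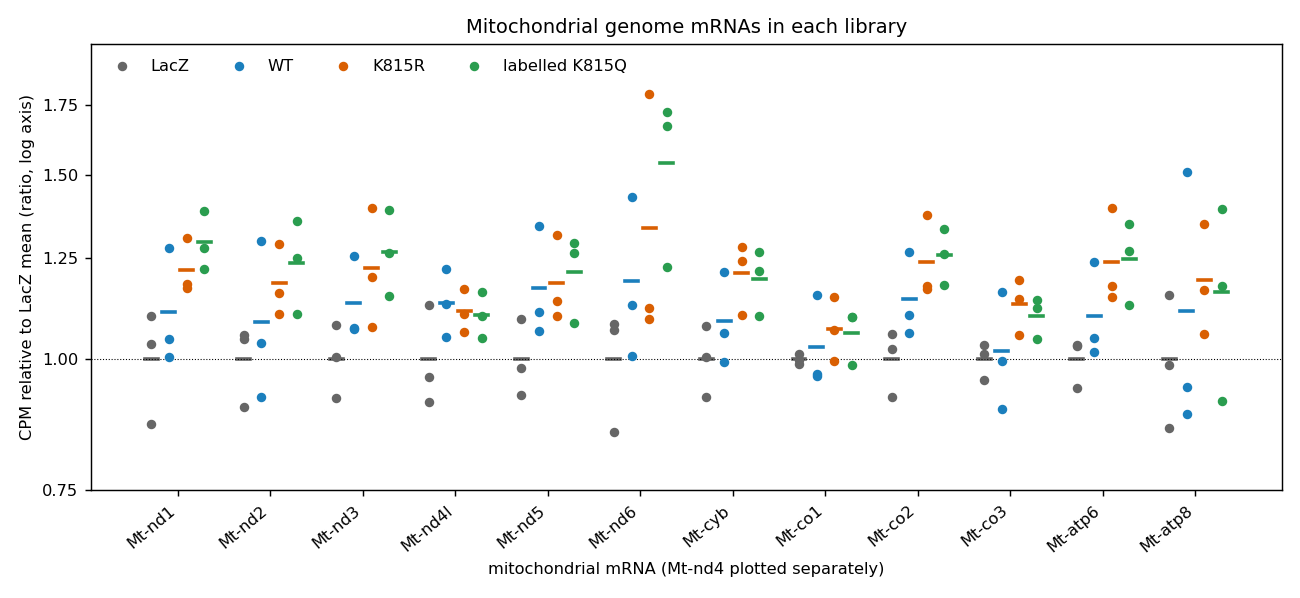
CPM of 12 mitochondrial mRNAs in each library, divided by the gene's mean in LacZ (log axis, dotted line at the LacZ mean); points are single libraries, short bars group means, colours the 4 groups. Mt-nd6 is the most spread of the 12, and in K815R and labelled K815Q the group mean of Mt-co1 is the closest to that of LacZ.

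In each of the 4 groups replicate 1 had the highest summed level of mitochondrial mRNA: 109155 CPM in LacZ, 128456 in WT, 132534 in K815R, then 129754 in labelled K815Q. The TMM scaling factor was 0.9675 in K815R replicate 1, the lowest of the 12, and factors computed without the mitochondrial mRNAs gave the same numbers of called mitochondrial mRNAs. In WT, replicate 1 alone carried most of the difference from LacZ: without it the median of the 13 mRNAs fell from 0.15 to 0.04, and Mt-co1, Mt-co3, Mt-nd2 and Mt-atp8 stood below LacZ, at -0.05, -0.08, -0.03 and -0.13. In K815R the median was 0.18 without replicate 1, and in labelled K815Q it stayed at 0.24 or above whichever library was left out.

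Mt-nd4, the mRNA of a proton-pumping complex I subunit, was the most uneven of the 13 across libraries. It had 125, 146 and 186 counts in the LacZ libraries, 317, 660 and 143 in WT, 186, 189 and 983 in K815R, then 172, 227 and 143 in labelled K815Q. In CPM this was 5.24, 6.51 and 7.62, then 16.1, 34.1 and 6.80, then 9.58, 7.45 and 44.6, and last 8.94, 11.5 and 7.45. Thus 3 libraries, WT replicates 1 and 2 and K815R replicate 3, stood apart, and the other 9 lay between 5.24 and 11.5 CPM. The other 12 mitochondrial mRNAs had at least 8098 counts in every library. By counts Mt-nd4 ranked 7840 of 14063 genes, and Mt-nd4l, which overlaps it and had 8098 to 11930 counts, ranked 284. The values of Mt-nd4 here are thus reads assigned to that gene, and whether they measure the level of its mRNA was not tested.

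Scaled to the mitochondrial total (CPM of mitochondrial counts), Mt-nd4 took 394 in K815R replicate 3 (95% exact interval 370.0 to 419.7, counting error only), 329.8 in WT replicate 2 and 125.1 in WT replicate 1. In LacZ it took 47.98 to 70.83, and in the other 6 libraries 62.15 to 91.76. Its coefficient of variation over the 12 libraries was 90.2%, higher than that of 99.56% of the genes tested, and its highest library was 8.5 times its lowest. Mt-nd4l had a coefficient of variation of 8.0% and a ratio of 1.3, and none of the 12 other mitochondrial mRNAs had a coefficient above 24.6%. The group differences of Mt-nd4 were within this spread: 1.55 in WT (SE 0.839, adjusted p 0.378), 1.67 in K815R (SE 0.826, adjusted p 0.439) and 0.53 in labelled K815Q (SE 0.913, adjusted p 0.778) against LacZ, in edgeR's quasi-likelihood F test after Benjamini-Hochberg adjustment. Without K815R replicate 3 the K815R value was 0.39, and without WT replicate 2 the WT value was 0.81. Only reads placed at a single position were counted, and 25.56% to 26.88% of the reads of each library were left out as placed at several; the part of these in the level of Mt-nd4 was not tested.

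**Figure D3:**
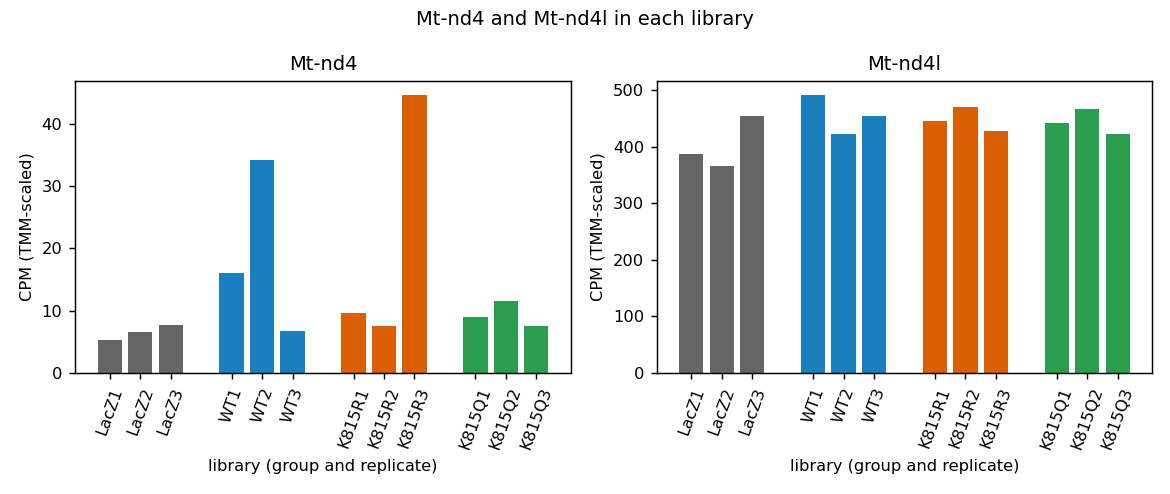
TMM-scaled CPM of Mt-nd4 (left) and of the overlapping Mt-nd4l (right) in each of the 12 libraries, 1 bar per library, coloured by group, with axes from 0. K815R replicate 3 and WT replicates 1 and 2 stand above the other libraries for Mt-nd4 and not for Mt-nd4l.

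Between the groups labelled as KAT6A forms, 0 of the 13 mitochondrial mRNAs were called. K815R had 12 of 13 above WT (median 0.12, positive in 49% of all genes), 0 with an unadjusted p under 0.05 (13.8% of all genes), where 2.2% of all genes were called. Labelled K815Q had 11 of 13 above WT (median 0.13, positive in 48.8% of all genes), where 1.07% of all genes were called. Mt-nd1 alone had an unadjusted p under 0.05 there, against 14.4% of genes, at 0.22 (95% interval 0.02 to 0.43, unadjusted p 0.0353, adjusted p 0.305 in edgeR's quasi-likelihood F test after Benjamini-Hochberg adjustment). K815R against labelled K815Q had 6 of 13 higher (median -0.01, positive in 49.8% of all genes), 0 with an unadjusted p under 0.05 (11.4% of all genes), and 0.363% of all genes called. For Mt-co2, the interval of K815R minus WT ran from -0.04 to 0.28, that of labelled K815Q minus WT from -0.02 to 0.30, and that of K815R minus labelled K815Q from -0.18 to 0.14. For Mt-nd6 the last of these ran from -0.75 to 0.34. No difference between forms passed the test for any mitochondrial mRNA.

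The mitoribosomal mRNAs varied little from library to library and had small fold changes. Their mean levels ran from 1.94 CPM for Mrpl1, with 33 to 56 counts per library, to 215 CPM for Mrpl12. Mrpl12, the large subunit protein that also binds the mitochondrial RNA polymerase, lay between 194.5 and 232.6 CPM, with a fold change against LacZ of 0.02 in WT, -0.01 in K815R and 0.05 in labelled K815Q. Mrpl17 (128 CPM on average) and Mrpl15 (125 CPM) followed, and Mrpl49 (12.99) and Mrps10 (13.9) were next above Mrpl1. The median coefficient of variation over the 12 libraries was 5.64% for the 75 mitoribosomal mRNAs, 12% for the 12 mitochondrial mRNAs other than Mt-nd4, 8.66% for all genes tested and 7.79% for the 11108 genes within the same range of CPM.

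Against LacZ, the medians of the 75 mitoribosomal mRNAs were 0.04 in WT, 0.03 in K815R and 0.06 in labelled K815Q. Fold changes were positive in 56, 51 and 60 of the 75, against 52.4%, 51.2% and 51.7% of all genes. With 1 library left out, the medians ran from 0.007 to 0.055, from -0.002 to 0.063 and from 0.033 to 0.093. In WT 1 was called higher (5 with an unadjusted p under 0.05), in K815R 0 (4) and in labelled K815Q 4 (18), and none was called lower. Of all genes, 1.95%, 0.74% and 2.87% were called higher in these comparisons, and 19.1%, 13.8% and 24.2% had an unadjusted p under 0.05. The libraries lay wholly above LacZ for 11, 5 and 21 of the 75, against 12.3%, 9.11% and 13.9% of all genes, and wholly below for 0, 3 and 1, against 12.3%, 9.6% and 14.5%. By subunit, medians were 0.04, 0.03 and 0.05 for the 46 Mrpl and 0.04, 0.04 and 0.08 for the 29 Mrps mRNAs. All the called genes were among the 42 that carry the number of a bacterial protein, and 0 among the 33 with higher numbers, whose medians were 0.04, 0.04 and 0.05 against 0.03, 0.03 and 0.06. With library totals in place of TMM, 0 of the 75 were called in labelled K815Q. The medians of the 75 were then 0.020, -0.007 and 0.025, with medians over all genes of -0.007, -0.036 and -0.031.

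**Figure D4:**
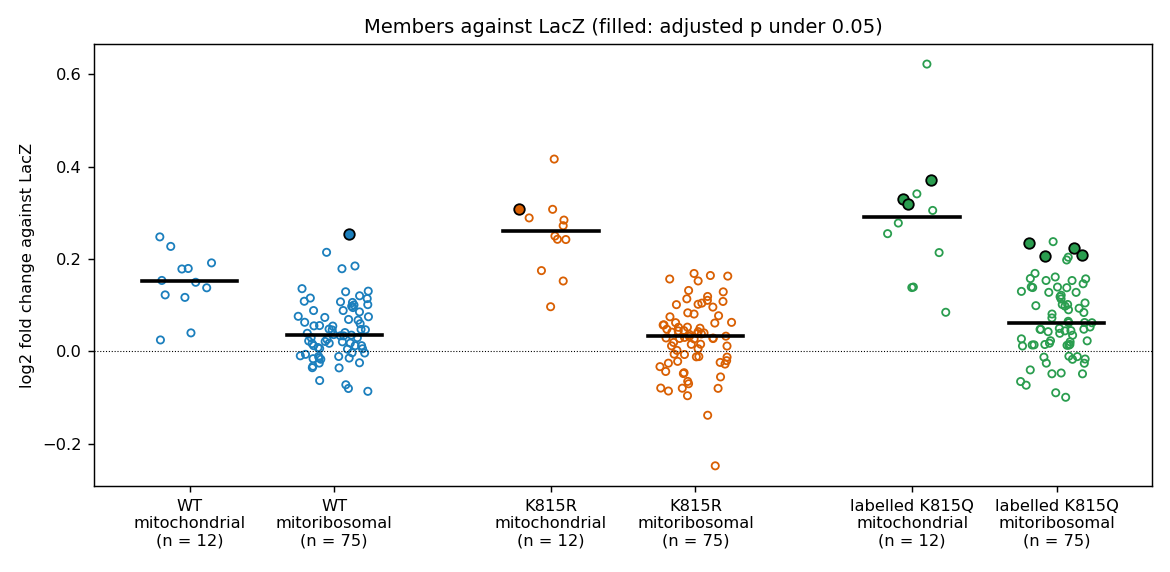
Log2 fold change against LacZ of each member, with the 12 mitochondrial mRNAs other than Mt-nd4 and the 75 mitoribosomal mRNAs in WT, K815R and labelled K815Q; each point is a gene, filled where the adjusted p was under 0.05, and black bars are medians. Medians of the mitochondrial mRNAs without Mt-nd4 are 0.15, 0.26 and 0.29, and those of the mitoribosomal mRNAs 0.04, 0.03 and 0.06.

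The 4 mitoribosomal genes that were called, Mrps6, Mrps17, Mrps21 and Mrpl18, are shown with their promoters, 250 bases before to 50 after the start in the RefSeq annotation of GRCr8. They were chosen only as the members called, and each of their calls was lost without LacZ replicate 2. Capitals mark a match to a motif linked to nuclear genes of mitochondria: GCATGCG for NRF1, CCGGAAG for the ETS family to which NRF2 belongs, or AAGATGG for YY1, searched on both strands. For Mrps21, whose table holds a second start, the one with a match is printed.
Mrps6, chr11:44778417-44778716, plus strand: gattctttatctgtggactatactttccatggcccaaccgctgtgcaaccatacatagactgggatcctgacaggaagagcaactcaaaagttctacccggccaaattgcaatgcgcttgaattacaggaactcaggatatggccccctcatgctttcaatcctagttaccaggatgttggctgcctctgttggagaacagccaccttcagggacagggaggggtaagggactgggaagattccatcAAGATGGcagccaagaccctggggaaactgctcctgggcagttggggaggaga
Mrps21, chr2:186103302-186103601, minus strand: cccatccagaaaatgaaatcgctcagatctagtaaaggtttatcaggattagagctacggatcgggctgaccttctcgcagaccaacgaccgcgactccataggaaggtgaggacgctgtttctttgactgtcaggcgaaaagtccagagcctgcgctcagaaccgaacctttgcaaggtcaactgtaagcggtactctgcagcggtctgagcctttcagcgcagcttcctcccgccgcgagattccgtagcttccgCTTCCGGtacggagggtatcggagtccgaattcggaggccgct
Mrpl18, chr1:50384702-50385001, plus strand: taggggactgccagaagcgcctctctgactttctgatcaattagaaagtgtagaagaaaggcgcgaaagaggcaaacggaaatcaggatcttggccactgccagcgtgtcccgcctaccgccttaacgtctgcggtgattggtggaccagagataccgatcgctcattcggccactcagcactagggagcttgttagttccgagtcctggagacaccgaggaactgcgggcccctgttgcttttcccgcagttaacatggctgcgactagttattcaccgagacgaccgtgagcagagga
Mrps17, chr12:32587763-32588062, minus strand: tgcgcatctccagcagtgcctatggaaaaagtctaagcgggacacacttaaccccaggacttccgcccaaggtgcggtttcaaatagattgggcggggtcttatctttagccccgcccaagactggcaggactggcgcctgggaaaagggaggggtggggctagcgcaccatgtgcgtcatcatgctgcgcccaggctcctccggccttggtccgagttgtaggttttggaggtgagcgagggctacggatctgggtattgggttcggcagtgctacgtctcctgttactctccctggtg
Mrps6 held a YY1 match, AAGATGG, that begins 3 bases before the start, and Mrps21 held an ETS match on its reverse strand, printed as CTTCCGG. Neither Mrpl18 nor Mrps17 held one of these letter strings in this window. Of the 75 mitoribosomal members, 60 had a promoter in the table, and 74 were matched by symbol. Of the 60, 6 (10%) held the NRF1 string, 17 (28.3%) the ETS string and 15 (25%) the YY1 string, against 3.33%, 8.75% and 7.01% of all 33469 promoters. Any of the 3 was held by 30 (50%), against 17.5% of all. The comparison took every promoter entry and was not limited to genes expressed in these cells. A match of letters is not a binding site, and binding was not tested. These counts of members took only the start with the lowest coordinate for each gene. For Mrps21 that is the start not printed, which held no match, so its ETS match is not among the 17.

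Mrps6 was called in 2 comparisons, and its mRNA encodes a small subunit protein with a bacterial counterpart. It had 85.2, 80.1 and 78.2 CPM in LacZ, 93.7, 106.2 and 90.8 in WT, 97.6, 82.3 and 87.5 in K815R, then 96.9, 93.5 and 91.1 in labelled K815Q. The WT and labelled K815Q libraries all lay above LacZ, and K815R overlapped it. Mrps6 rose by 0.25 in WT (SE 0.0642, adjusted p 0.0203) and by 0.21 in labelled K815Q (SE 0.0644, adjusted p 0.0484), and stood 0.13 above LacZ in K815R (SE 0.0642, adjusted p 0.369), in edgeR's quasi-likelihood F test after Benjamini-Hochberg adjustment. It was also the only mitoribosomal mRNA called for any difference among the 4 groups (adjusted p 0.0487). The WT call was lost without WT replicate 2 (0.18), LacZ replicate 2 (0.24) or LacZ replicate 3 (0.23). The labelled K815Q call was lost without any K815Q library (0.19, 0.21 and 0.23), LacZ replicate 2 (0.20) or 3 (0.18), K815R replicate 3 (0.21) or WT replicate 1 (0.21). That call was also lost in DESeq2 (0.21), with RLE scaling (0.21) and with library totals only (0.17). Scaling factors computed without the mitochondrial mRNAs lost it too (0.21).

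The other calls were all in labelled K815Q against LacZ. Mrps21, a small subunit protein, had 60.7, 58.7 and 58.2 CPM in LacZ, 65.1, 68.8 and 67.2 in WT, 70.3, 58.1 and 69.9 in K815R, then 69.2, 66.5 and 71.7 in labelled K815Q. All groups but K815R, whose replicate 2 was as low as LacZ, lay above LacZ, and the rise in labelled K815Q was 0.22 (SE 0.0626, adjusted p 0.0314), in edgeR's quasi-likelihood F test after Benjamini-Hochberg adjustment. Its values in WT and K815R were 0.18 and 0.16. Mrpl18, a large subunit protein, had 49.1, 47.2 and 49.2 CPM in LacZ and 61.8, 54.8 and 54.6 in labelled K815Q, a rise of 0.23 (SE 0.0647, adjusted p 0.0305), with 58.0, 51.4 and 49.8 in WT and 51.8, 47.2 and 51.3 in K815R. Mrps17, another small subunit protein, had 48.1, 47.0 and 45.1 CPM in LacZ, 49.5, 51.3 and 50.3 in WT, 55.0, 48.6 and 54.2 in K815R, then 58.8, 51.5 and 51.5 in labelled K815Q. Every library of the other 3 groups was above every LacZ library for Mrps17, and the rise in labelled K815Q was 0.21 (SE 0.0624, adjusted p 0.0433), against 0.17 in K815R (SE 0.0620, adjusted p 0.188) and 0.11 in WT (SE 0.0625, adjusted p 0.374), by the same test. For Mrps21 and Mrpl18 the calls were lost without LacZ replicate 2 (0.22 and 0.21), LacZ replicate 3 (0.21 and 0.24) or K815Q replicate 1 (0.22 and 0.17), and for Mrps21 also without K815Q replicate 3 (0.20). The Mrps17 call was lost without any LacZ or WT library, without K815R replicate 3, and without K815Q replicate 1 (0.14, the lowest) or 3 (0.24, the highest). It was also lost in DESeq2 (0.20), in the fit of only the 6 libraries compared (0.21) and with library totals only (0.17).

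**Figure D5:**
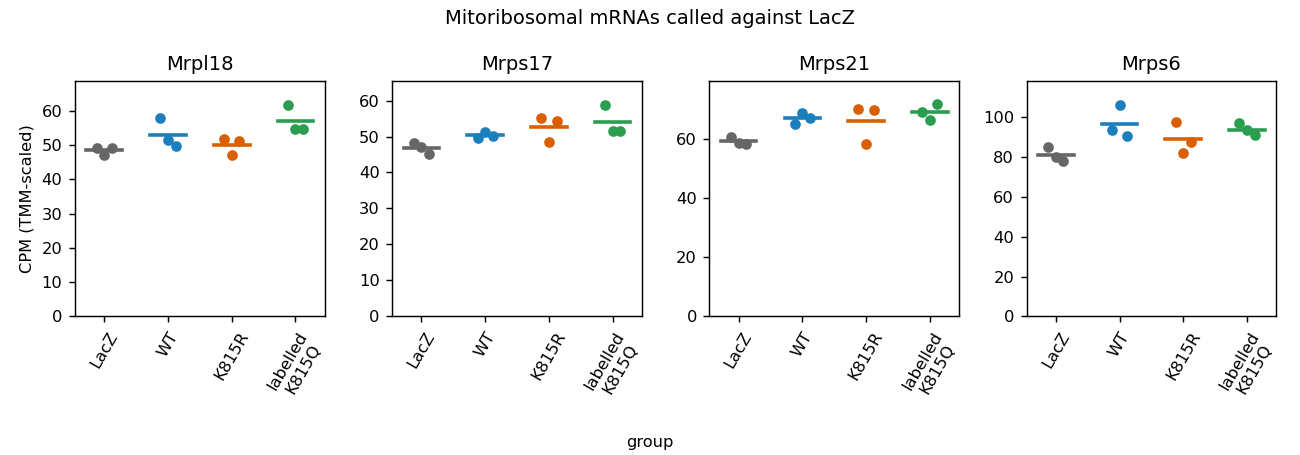
TMM-scaled CPM of the 4 called mitoribosomal mRNAs by group; points are single libraries, short bars means of 3, with axes from 0. In labelled K815Q all 3 libraries lie above all 3 LacZ libraries for each gene.

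Several neighbours in size did not pass the test. Mrpl34, a large subunit protein, had 39.8, 36.01 and 34.6 CPM in LacZ and 42.9, 43.5 and 41.7 in WT, a difference of 0.21 (SE 0.0686, adjusted p 0.0708), and stood 0.20 above LacZ in labelled K815Q (SE 0.0688, adjusted p 0.0690), in edgeR's quasi-likelihood F test after Benjamini-Hochberg adjustment. Mrpl33, also of the large subunit, had 70.3, 69.9 and 66.1 CPM in LacZ and 86.7, 72.4 and 84.3 in labelled K815Q, where it stood 0.24 above LacZ (SE 0.0738, adjusted p 0.0544) by the same test. The value furthest from 0 in K815R was that of Mrpl1, at -0.25 (SE 0.21, adjusted p 0.666), a gene with 33 to 56 counts per library.

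Between the groups labelled as KAT6A forms, 0 of the 75 mitoribosomal mRNAs were called, where 2.2%, 1.07% and 0.363% of all genes were in the order given next. Medians were -0.02 for K815R against WT (28 higher, 1 with an unadjusted p under 0.05), 0.03 for labelled K815Q against WT (48 higher, 0 with such a p) and -0.04 for K815R against labelled K815Q (19 higher, 4 with such a p). Of all genes 13.8%, 14.4% and 11.4% had such a p, and 49%, 48.8% and 49.8% were higher. For Mrps6, labelled K815Q minus WT was -0.05 with a 95% interval from -0.18 to 0.09. Mrpl18 was 0.19 lower in K815R than in labelled K815Q in the fit (log2 -0.19, interval -0.32 to -0.05), with no overlap of the libraries and an adjusted p of 0.233 in edgeR's quasi-likelihood F test after Benjamini-Hochberg adjustment.

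Genes that make, process and translate mitochondrial RNA were read from lists of such genes. Of these, only Pnpt1 was called lower than LacZ in all 3 groups labelled KAT6A. Pnpt1, a nuclease that degrades RNA in mitochondria and is induced by interferon, had 47.8, 53.8 and 50.4 CPM in LacZ, 40.5, 34.4 and 34.9 in WT, 41.0, 38.1 and 37.3 in K815R, then 35.9, 38.0 and 35.7 in labelled K815Q. No library of the other 3 groups reached the LacZ range, and the log2 fold changes were -0.47 (SE 0.0676, adjusted p 1.44e-04), -0.38 (SE 0.0668, adjusted p 0.00181) and -0.47 (SE 0.0678, adjusted p 1.38e-04), in edgeR's quasi-likelihood F test after Benjamini-Hochberg adjustment. Each of the 3 calls held without each of the 12 libraries in turn (log2 fold changes from -0.55 to -0.34) and under all 10 other settings. It was the only one called of 21 genes for RNA processing and stability tested in these comparisons, where 5.34%, 2.47% and 7.85% of all genes were called. Lrpprc and Slirp, partners that stabilise mitochondrial mRNA, were not called: Lrpprc stood at 0.05, 0.00 and -0.07 and Slirp at 0.07, 0.09 and 0.12 in WT, K815R and labelled K815Q.

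Calls in the other lists were few, and are to be read against the same 5.34% (WT), 2.47% (K815R) and 7.85% (labelled K815Q) of all genes called. Of 15 genes for transcription and replication of mitochondrial DNA tested, 1 was called, in labelled K815Q. Polrmt, the mitochondrial RNA polymerase, had 27.7, 30.6 and 27.6 CPM in LacZ and 33.8, 31.4 and 35.7 in labelled K815Q, a rise of 0.23 (SE 0.0713, adjusted p 0.0465) in edgeR's quasi-likelihood F test after Benjamini-Hochberg adjustment, and stood 0.19 above LacZ in WT and 0.12 in K815R, neither called. Tfam, which packages mitochondrial DNA and starts its transcription, stood at -0.10, -0.02 and -0.05, and Tefm, the elongation factor, at -0.02, -0.17 and -0.22, none called. Of 21 ribosome assembly genes, Noa1, a GTPase of small subunit assembly, was called in WT (0.28, SE 0.08, adjusted p 0.0413 by the same test). Of 19 genes for tRNA charging, Lars2, the mitochondrial leucyl-tRNA synthetase, was called lower in labelled K815Q (-0.32, SE 0.0908, adjusted p 0.0323 by the same test). Of 18 translation factors none was called, and of 4 mitoribosomal proteins named by other symbols none, Dap3, a GTP-binding small subunit protein, standing at -0.04, -0.07 and -0.01. Between the groups labelled as KAT6A forms, no gene of these lists was called. The Polrmt call was lost in DESeq2 (0.23, adjusted p 0.0574), with library totals only (0.20), when the other 6 libraries were dropped from the fit (0.23), and without K815Q replicate 1 (0.23) or 3 (0.19), K815R replicate 1 or 3 (0.23 each), WT replicate 2 (0.23) or LacZ replicate 1 (0.21), 2 (0.28) or 3 (0.21). The Noa1 call was lost in DESeq2 (0.27, adjusted p 0.0881), with library totals only (0.26), and without LacZ replicate 2 (0.24) or 3 (0.28), any WT library (0.31, 0.25 and 0.27) or K815R replicate 1 or 3 (0.28 each), and that of Lars2 without K815Q replicate 1 (-0.25), LacZ replicate 2 (-0.34) or LacZ replicate 3 (-0.23).

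Markers of other cell types were present, and some moved with the groups. The summed level of 12 macrophage and leukocyte markers was 82.8 to 106.2 CPM in LacZ, 105.8 to 112.7 in WT, 108.8 to 115.8 in K815R and 110.9 to 120.0 in labelled K815Q, and none of the 12 was at 0. The summed cardiomyocyte markers were 45497 to 47846 CPM in LacZ, 48031 to 49341 in WT, 48753 to 50730 in K815R and 46874 to 49828 in labelled K815Q. In WT and K815R they thus lay wholly above LacZ, in the same direction as the mitochondrial mRNAs. In labelled K815Q, where the median fold change of the mitochondrial mRNAs was largest, the summed cardiomyocyte markers overlapped LacZ. Fibroblast markers (10 genes, 11008 to 12860 CPM), smooth muscle markers (7 genes, 3866 to 4530 CPM) and endothelial markers (8 genes tested, 164 to 241 CPM, with 1 more at 0 in every library) overlapped LacZ in labelled K815Q, and in K815R the fibroblast markers, at 11114 to 11558 CPM, lay wholly below the 11863 to 12731 CPM of LacZ. These sums cover changes in single markers. Of the 10 fibroblast markers, Dpt and Postn were called higher and Pdgfra lower in WT, and Fbln1 was called higher in K815R. Dpt, Postn and Tcf21 were called higher in labelled K815Q. For any difference among the 4 groups 5 of the 10 were called, against 8.13% of all genes. Tcf21, a transcription factor of cardiac fibroblasts, stood 0.53 above LacZ in labelled K815Q (adjusted p 0.00236), in edgeR's quasi-likelihood F test after Benjamini-Hochberg adjustment. The value furthest from 0 was that of Col1a2, at 1.46 in K815R and 2.61 in labelled K815Q (adjusted p 0.608 and 0.150 by the same test), where 1 K815R and 2 labelled K815Q libraries, at 74.3, 126.3 and 81.0 CPM, stood above the other 9, at 9.14 to 16.9 CPM. Lyz2, a macrophage marker, was called higher in all 3 groups labelled KAT6A and Adgre1 lower in labelled K815Q. Pln, a cardiomyocyte marker, was called higher in WT and labelled K815Q. Of the smooth muscle and endothelial markers 0 were called against LacZ, with 3, 2 and 2 of 7, then 0, 0 and 1 of 8, at an unadjusted p under 0.05 in WT, K815R and labelled K815Q. Over all genes, 19.1%, 13.8% and 24.2% had such a p in these comparisons, and 5.34%, 2.47% and 7.85% were called. Of the erythroid markers only Hbb was tested, at 2.48 to 9.01 CPM, called lower in WT and labelled K815Q. The part of the cell makeup in the differences of mitochondrial mRNA was not tested.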

How the data were processed

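RNA from 12 libraries, 3 in each of 4 groups taken from the sample titles, was analysed from the table of raw read counts per gene that the authors deposited. Per the labels' protocols, RNA with an integrity number above 7 went through repeated poly(A) selection into a strand-specific kit and was sequenced as single reads of 75 nt. The submitters' processing notes list Trimmomatic 0.39, HISAT2 2.2.1, HTSeq 0.6.1, edgeR and the build Rnor_6.0, with no settings. The 5 counter rows that name no gene were left out throughout. They held 11.71% to 12.90% of reads for no feature, 25.56% to 26.88% placed at several positions, 2.685% to 3.065% not aligned and 0.461% to 0.4996% ambiguous. Gene counts were therefore those of uniquely placed reads, which affects genes with copies, and a count of 3 corresponds to 0.118 to 0.157 CPM.

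Genes passing filterByExpr (at least 10 counts, total of at least 15) were scaled by TMM and tested across all 14063 genes in 1 model of group means with edgeR 4.0.16 in R 4.3.3 (quasi-likelihood test, robust), with Benjamini-Hochberg adjustment and a threshold of 0.05, for 6 pairwise comparisons and for any difference. DESeq2 1.42.0 was an alternative, beside other scalings and filters, a replicate term, fits of 6 libraries, summed overlapping genes and leaving out each library. The named genes were all mitochondrial mRNAs, each mitoribosomal mRNA called, the 3 highest and 3 lowest by level, the 2 with the largest change in each comparison with LacZ, Mrpl12, and 7 fixed genes and all called genes of the lists. Within groups, chi-square per degree of freedom between libraries was 4.635 to 9.097, so none was a second sequencing of another library. This check cannot tell separate preparations of the same culture from separate cultures. Recovery was tested on simulated data for WT against LacZ (13932 genes): 95 of 100 genes changed 2-fold, 78 of 100 changed 1.5-fold and 7 unchanged genes were called. Every simulated gene had the same spread between libraries (biological coefficient of variation 0.0581). These rates therefore do not cover genes of wider spread, such as Mt-nd4, Mt-nd6 and Mt-atp8. Smaller changes, such as those of most members, were not simulated. The members and lists were chosen with earlier results of these data known. Promoters come from RefSeq on GRCr8, and no coordinates on Rnor_6.0 were used.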

Additional observations from a re-analysis of the deposited data

How the results depend on the processing

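Of 4488 recomputed values of named genes, 4244 kept their direction and side of the threshold, 74 lost a call, 53 gained one and 117 changed sign, of which 0 were called in either fit. Every one of the 9 calls of members against LacZ was lost without LacZ replicate 2. Leaving out 1 library at a time gave 0 to 1 called mitochondrial mRNAs in WT, 0 to 3 in K815R and 0 to 6 in labelled K815Q, and 0 to 3, 0 to 1 and 0 to 6 called mitoribosomal mRNAs. Between the groups labelled as KAT6A forms no member was called under any alternative. Over the same omissions, log2 fold changes in WT against LacZ ran from -0.079 to 0.11 for Mt-co3, from -0.13 to 0.29 for Mt-atp8, from -0.050 to 0.084 for Mt-co1 and from -0.031 to 0.22 for Mt-nd2. Values near 0 also changed sign: Mrpl12 ran from -0.036 to 0.051 in WT, -0.063 to 0.046 in K815R and -0.0050 to 0.099 in labelled K815Q. In K815R, Lrpprc ran from -0.037 to 0.037 (-0.036 with library totals only), Tfam from -0.063 to 0.015 and Slirp from -0.026 to 0.20, and in labelled K815Q Dap3 ran from -0.043 to 0.020. Mt-nd4 ran from -1.16 to 0.85 in K815R against WT and from -0.14 to 1.56 in K815R against labelled K815Q, and the sum of Mt-nd4 and Mt-nd4l stood at -0.021 in the former. With library totals only, 0 mitoribosomal mRNAs were called in labelled K815Q. With no filter, 1 mitochondrial and 2 mitoribosomal mRNAs were called in WT and 3 mitochondrial in K815R. Fits of only the 6 libraries compared called 2 mitochondrial mRNAs in K815R and 7 in labelled K815Q, and DESeq2 called 3 in K815R. The cause of these changes was not tested.

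With the replicate number as a block, 1, 5 and 6 mitochondrial mRNAs were called in WT, K815R and labelled K815Q against LacZ, with 800, 390 and 1280 calls over all genes against 751, 348 and 1104 without the block. The numbers did not pair the libraries by the check used. Same-numbered libraries correlated between -0.127 and 0.122 over genes, 1 of 18 pairs above 0.1, and 5 of 12 libraries correlated best with one of their own number. This check covered all genes tested and not the members alone. The summed level of mitochondrial mRNA was highest in replicate 1 of each group, and whether the numbers pair the libraries for these mRNAs was not tested. Over all genes, calls without the block were 378 to 839, 173 to 364 and 360 to 1318 with 1 library left out, and 1018, 600 and 1528 with no filter. The called mitoribosomal fold changes, 0.21 to 0.25 on the log2 scale, had adjusted p from 0.0203 to 0.0484 in edgeR's quasi-likelihood F test after Benjamini-Hochberg adjustment, and none below 0.21 was called with 3 libraries a group.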

Other observations

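Of the 92 matching genes, 4 fell under the count minimum, all mitoribosomal. Mrpl36, a large subunit protein, had 0 to 10 counts per library: 5, 4 and 8 in LacZ, 3, 0 and 10 in WT, 0, 2 and 1 in K815R, then 6, 0 and 0 in labelled K815Q. Mrpl30 had 0 to 4 counts, and RefSeq lists 9 pseudogenes under its name. Mrpl53 had 0 to 1 and Mrps21l 0 to 2. Of the members that passed, 22 have pseudogenes named after them in RefSeq, and Mrpl1, the lowest, has 2. How many of their reads were left out as placed at several positions was not tested. Mrps36, which RefSeq lists under Kgd4 and which belongs to the 2-oxoglutarate dehydrogenase complex, lay between 90.2 and 108.6 CPM.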
